A study of Mus musculus with 30 samples.

Results

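HE1 cells lacking Sp3 were compared directly with HE1 cells carrying a mutant Sp1, with no wild type sample in between. The comparison rests on 4 of the 30 RNA-seq samples of the series, 2 labelled Sp3KO and 2 labelled Sp1_deltaDBD, chosen by their labels alone, and on all 14685 genes of the table. All 4 samples derive from the E14 mouse ESC line. Sp1_deltaDBD cells (Sp1ΔDBD/ΔDBD) are homozygous for an Sp1 allele without its DNA-binding domain, from which a truncated protein is still made. Sp3KO cells (Sp3-/-) carry a knockout of Sp3 and an intact Sp1. The Sp1_deltaDBD cells have an intact Sp3. Flk1+ cells were purified from embryoid bodies and placed in blast culture, and HE1 cells were sorted on day 2 of that culture as KIT+ CD41- Tie2+, the first stage of hemogenic endothelium. Each genotype is represented by 1 ESC line, and whether that line is a single clone is not given in the sources used here. Genotype and line therefore cannot be told apart, and the direct comparison does not show which of the mutants departs from wild type.

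Sp1 and Sp3 are ubiquitous zinc finger transcription factors. Both recognise GC-rich elements known as GC boxes, which are common in promoters, and their known binding sites largely overlap. Sp1 is known mainly as an activator, whereas Sp3 can activate or repress depending on the promoter. Hemogenic endothelium is the endothelial population from which blood cells emerge, and it switches from vascular to blood gene expression as it progresses through HE1 and HE2 to progenitors. The question addressed here is how far the transcriptomes of the mutants differ from each other at the first of these stages.

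Levels are given as FPKM, the number of fragments per kilobase of transcript, scaled to the fragments mapped, after the authors' quantile normalisation, and each pair of values lists replicate 1 first. The median of every sample was 7.19 FPKM, as quantile normalisation imposes. The depth behind a value is unknown. Differences are Sp3KO minus Sp1_deltaDBD on the log2(FPKM + 0.1) scale with their standard error, so a positive value means higher in Sp3KO, and changes of low genes are understated. They were tested with limma, and a gene was called where the p adjusted over all 14685 genes was below 0.05. The spread was shared over the 20 samples of both mutants in the 5 populations of the series, since 2 against 2 samples alone leave little to estimate it from. An exact permutation test of 2 against 2 samples cannot give a two-sided p below 0.333.

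Sp3 itself, on chromosome 2 (72936427 to 72980446 of GRCm38, minus strand), was measured at 40.3 and 45.3 FPKM in Sp1_deltaDBD and 4.497 and 4.801 FPKM in Sp3KO. The samples did not overlap, and Sp3 was 9.03-fold lower in Sp3KO (-3.17 ± 0.16, adjusted p = 9.16e-08). Sp1 was measured at 19.9 and 27.9 FPKM in Sp1_deltaDBD and 30.03 and 29.8 FPKM in Sp3KO, a difference of 0.34 ± 0.18 that was not called (adjusted p = 0.234). The FPKM of a whole gene does not show which exons the reads came from, so the Sp1 value is no check of the Sp1_deltaDBD label, and the reads left in Sp3KO are not assigned to a part of Sp3. Sp4, another member of the family with the same DNA-binding preference, was also lower in Sp3KO (-2.56 ± 0.24, adjusted p = 2.92e-05). It was measured at 8.23 and 12.1 FPKM in Sp1_deltaDBD and 1.65 and 1.57 FPKM in Sp3KO, and the groups did not overlap. Of the 22 genes of the Sp and Klf family in the table, 1 rose and 3 fell (6.67% and 6.69% of all genes). Sp3 is among those that fell, and its call follows from the genotype compared. After the correction for GC content and length described below, 2 rose and 3 fell, Sp3 again included. Klf15, a metabolic regulator, rose (0.456 and 0.352 FPKM in Sp1_deltaDBD and 1.84 and 1.69 FPKM in Sp3KO; adjusted p = 0.00373). Klf6, a zinc finger factor of injury responses, fell from 102 and 184 to 70.6 and 59.4 FPKM (adjusted p = 0.0149).

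None of the 3 sort markers was called. Tek, which encodes Tie2, was at 141 and 234 FPKM in Sp1_deltaDBD and 146 and 154 FPKM in Sp3KO, and Kit at 13.9 and 23.9 FPKM in Sp1_deltaDBD and 22.1 and 18.6 FPKM in Sp3KO, and in both cases the groups overlapped. Itga2b, which encodes CD41, the marker absent from the surface of sorted HE1 cells, was at 42.8 and 55.7 FPKM in Sp1_deltaDBD and 83.3 and 81.8 FPKM in Sp3KO. Both Sp3KO samples were above both Sp1_deltaDBD samples, but the difference of 0.76 ± 0.47 was not called (adjusted p = 0.3298). Itga2b transcripts were thus present in all 4 samples, below the 96.99 and 115 FPKM of HE2 in Sp1_deltaDBD and the 129.9 and 134 FPKM of HE2 in Sp3KO. The endothelial cadherin Cdh5 was high in every sample (479.7 and 591 against 378 and 369 FPKM, Sp1_deltaDBD first), and the pluripotency factor Pou5f1 did not exceed 0.179 FPKM in any of the 4, against 450.5 and 410.1 FPKM in Sp1_deltaDBD ESC.

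Between the mutants, 1962 genes were called, which is 13.4% of the genes tested. Of these, 980 (6.67%) were higher and 982 (6.69%) were lower in Sp3KO. Of the called genes, 860 differed by over 2-fold, 438 upwards and 422 downwards, and the median difference of all genes was 0.0066. In all 1962 called genes the samples did not overlap, which is also the case for 27.5% of all genes with Sp3KO above and 27.8% with Sp3KO below. The samples stood apart as groups: across genes, the correlation of log2 values was 0.970 between the Sp1_deltaDBD samples, 0.983 between the Sp3KO samples and 0.952 to 0.964 between samples of different genotype. The count depends on the shared spread. With the 4 HE1 samples alone, limma called 24 genes (0.163%), and with the shared spread it called 580 without Sp3KO replicate 2, 779 without Sp1_deltaDBD replicate 2, 875 without Sp3KO replicate 1 and 1721 without Sp1_deltaDBD replicate 1. The share of genes called higher and lower was then 2.6% and 3.36% without Sp3KO replicate 1, 1.85% and 2.1% without Sp3KO replicate 2, 6.12% and 5.6% without Sp1_deltaDBD replicate 1, and 2.56% and 2.74% without Sp1_deltaDBD replicate 2, and the counts of gene groups below that leave out a library are to be read against these. Without any test, 717 genes (4.88%) differed over 2-fold between group means, the higher of which exceeded 3 FPKM, 365 higher (2.49%) and 352 lower (2.4%), and limma called 514 of them (71.7%).

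**Figure D1:**
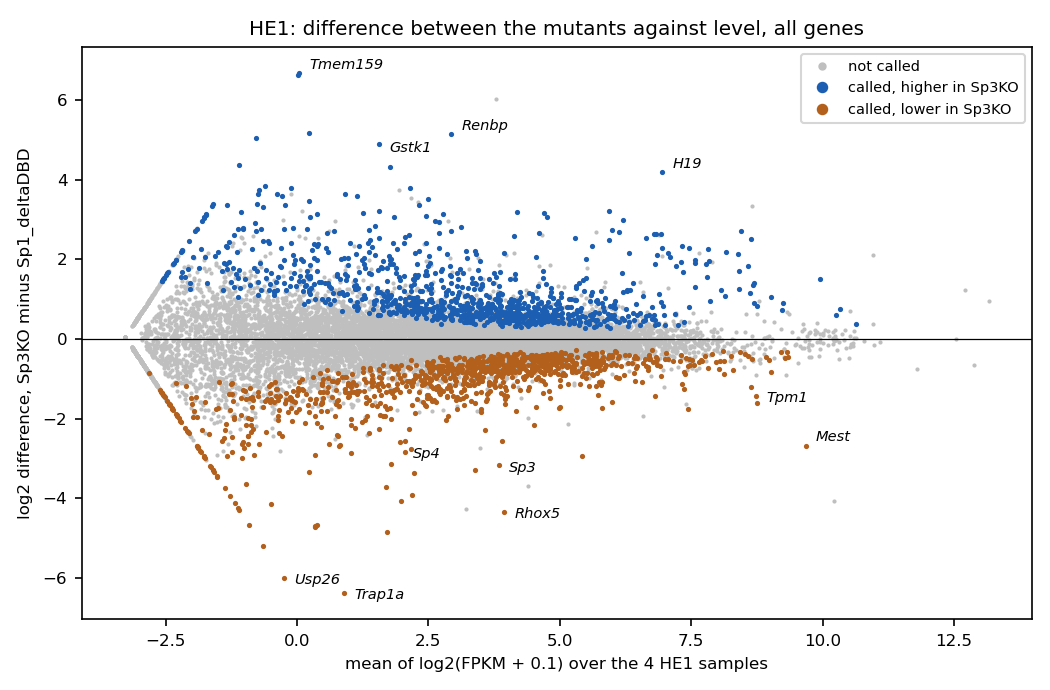
Difference between the mutants in HE1 (Sp3KO minus Sp1_deltaDBD, log2 scale) against the mean of log2(FPKM + 0.1) over the 4 samples, for all 14685 genes. Blue points are the 980 genes called higher and brown points the 982 genes called lower in Sp3KO, and grey points were not called; the straight edges on the left hold genes at the lowest value in one of the groups.

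The base composition of the transcripts moved with the difference. Across the 9831 genes above 3 FPKM in the higher group with a known GC content, Spearman's rho between GC content and the log2 difference was 0.427, a description over genes that share the same 4 libraries. In the fifth of genes with the lowest GC content (31.0 to 43.7%), the median difference was -0.26, and 30 genes were called higher and 326 lower. In the fifth with the highest GC content (55.3 to 71.3%), the median was 0.27, and 341 genes were called higher and 40 lower. After a correction for GC content and transcript length, 891 genes (6.07%) were called higher and 986 (6.71%) lower. Whether the dependence came from the cells or from the libraries was not tested, and counts after this correction are given beside the gene groups below where they differ.

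**Figure D2:**
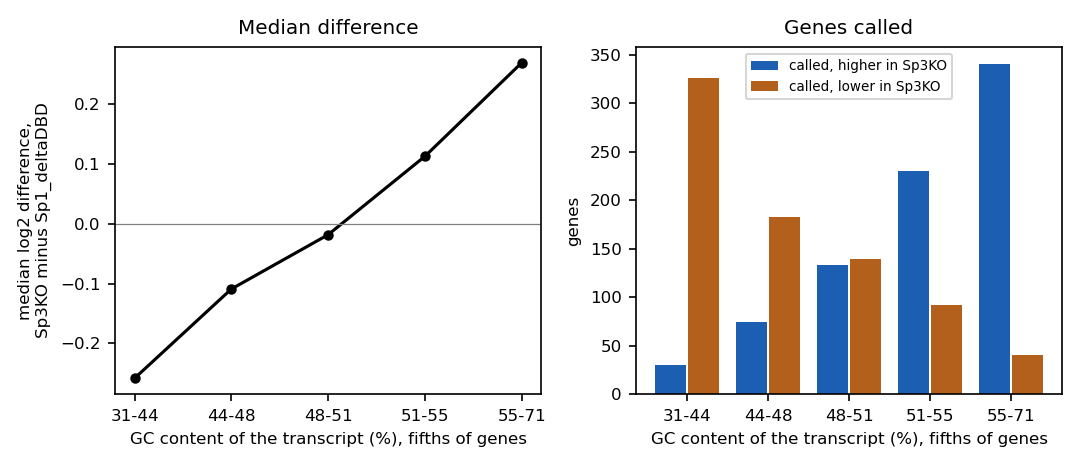
Genes above 3 FPKM in the higher group in 5 equal groups by transcript GC content (x axis, percent). Left, the median log2 difference, Sp3KO minus Sp1_deltaDBD, climbed from -0.26 to 0.27; right, the number of genes called higher (blue) climbed from 30 to 341 while the number called lower (brown) fell from 326 to 40.

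Several of the largest rises were of genes near silent in the Sp1 mutant. Mgmt, which encodes a DNA repair enzyme that removes alkyl groups from guanine, was at the lowest value of the sample in both Sp1_deltaDBD samples and at 10.1 and 9.94 FPKM in Sp3KO (adjusted p = 5.14e-07). Tmem159, a lipid droplet protein gene, showed the same pattern at 10.5 and 10.3 FPKM in Sp3KO (adjusted p = 1.9e-08), as did Got1l1, an aspartate aminotransferase-like gene, at 3.17 and 3.34 FPKM (adjusted p = 5.88e-05). No fold is given for these genes, since one group sits at the floor of the table. Renbp, which encodes an enzyme of amino sugar metabolism, was at 0.749 and 1.85 FPKM in Sp1_deltaDBD and 44.8 and 46.3 FPKM in Sp3KO, a 35.5-fold difference (5.15 ± 0.37, adjusted p = 3.02e-06). Smim20, coding for a small protein of mitochondrial complex assembly, was at 0.27 and 0.00251 FPKM in Sp1_deltaDBD and 7.24 and 6.76 FPKM in Sp3KO (adjusted p = 0.000442). Gstk1, the mitochondrial and peroxisomal glutathione S-transferase, was at 0.436 and 0.438 FPKM in Sp1_deltaDBD and 14.9 and 17.2 FPKM in Sp3KO (4.90 ± 0.54, adjusted p = 0.000133).

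Cers4, a ceramide synthase, was at 0.8397 and 0.512 FPKM in Sp1_deltaDBD and 15.6 and 14.6 FPKM in Sp3KO (4.32 ± 0.27, adjusted p = 8.61e-07). The endoplasmic reticulum calcium pump Atp2a3 rose from 0.209 and 0.101 to 3.06 and 3.71 FPKM, and P2rx1, an ATP-gated channel of platelets, from 0.3805 and 0.159 to 3.12 and 4.62 FPKM. Ctsz, a lysosomal protease, was at 2.25 and 1.08 FPKM in Sp1_deltaDBD and 16.7 and 21.4 FPKM in Sp3KO (3.51 ± 0.36, adjusted p = 8.24e-05). The remaining genes among the 15 largest rises were H19, described with the imprinted genes, Ano10 (3.79), As3mt (3.60), Arhgap45 (3.37) and the uncharacterised C330024D21Rik (3.65), on the log2 scale. Each of the 15 had both Sp3KO samples above both Sp1_deltaDBD samples, as the rule for naming them requires.

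Of the 15 largest falls, at least 4 were of X-linked genes and at least 4 of genes on chromosome 12, since AF357359 and AF357355 were not placed. These chromosomes hold 339 and 342 of the 9873 genes above 3 FPKM. Of those, 16.2% on X and 11.4% on chromosome 12 were called lower, beside 7.94% of all genes above that level. The falls on chromosome 12 are not separate cases, since Rian and Meg3 belong to the same imprinted domain. Usp26, an X-linked germ cell deubiquitinase, was at 6.86 and 6.44 FPKM in Sp1_deltaDBD and at the lowest value of the sample in both Sp3KO samples (adjusted p = 9.16e-08). Trap1a, an X-linked tumour antigen gene, was at 33.7 and 8.399 FPKM in Sp1_deltaDBD and 0.277 and 0.009602 FPKM in Sp3KO (adjusted p = 0.00077), so that the Sp1_deltaDBD samples themselves differed widely. Rhox5, an X-linked homeobox gene of the reproductive tract, was at 73.7 and 64.2 FPKM in Sp1_deltaDBD and 4.32 and 2.504 FPKM in Sp3KO (-4.34 ± 0.24, adjusted p = 2.9e-07). Fmr1nb, also X-linked, was at 27.2 and 11.5 FPKM in Sp1_deltaDBD and 1.305 and 0.881 FPKM in Sp3KO (adjusted p = 0.0306). On chromosome 12, the imprinted non-coding RNAs Rian and Meg3 fell together with AF357425 and are described with the imprinted genes, and Srp54b, coding for a signal recognition particle subunit with near-identical neighbours, was at 15.6 and 16.5 FPKM in Sp1_deltaDBD and 0.786 and 0.933 FPKM in Sp3KO (adjusted p = 0.0467). Reads of Srp54b and of Gm3383 (adjusted p = 0.0316) can be split between close copies, so both values are uncertain. AF357359 (11.3 and 3.67 against 0.456 and 0.009602 FPKM, Sp1_deltaDBD first) and AF357355 (7.31 and 0.474 FPKM in Sp1_deltaDBD and the lowest value in Sp3KO) were also among the 15 largest falls, and their position was not matched in the annotation.

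The remaining falls were of genes with diverse functions. Stag3, a cohesin subunit of meiosis, was at 10.95 and 20.4 FPKM in Sp1_deltaDBD and 1.18 and 1.58 FPKM in Sp3KO (-3.36 ± 0.34, adjusted p = 6.71e-05). Ulbp1, a stress ligand recognised by natural killer cells, was at 33.3 and 32.2 FPKM in Sp1_deltaDBD and 3.24 and 3.301 FPKM in Sp3KO (-3.29 ± 0.29, adjusted p = 1.88e-05). Dppa2, a gene of the early embryo and of ESC, was at 8.03 and 5.103 FPKM in Sp1_deltaDBD and 0.504 and 0.009602 FPKM in Sp3KO (adjusted p = 0.00345). None of the 30 largest differences changed sign under any alternative tried.

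**Figure D3:**
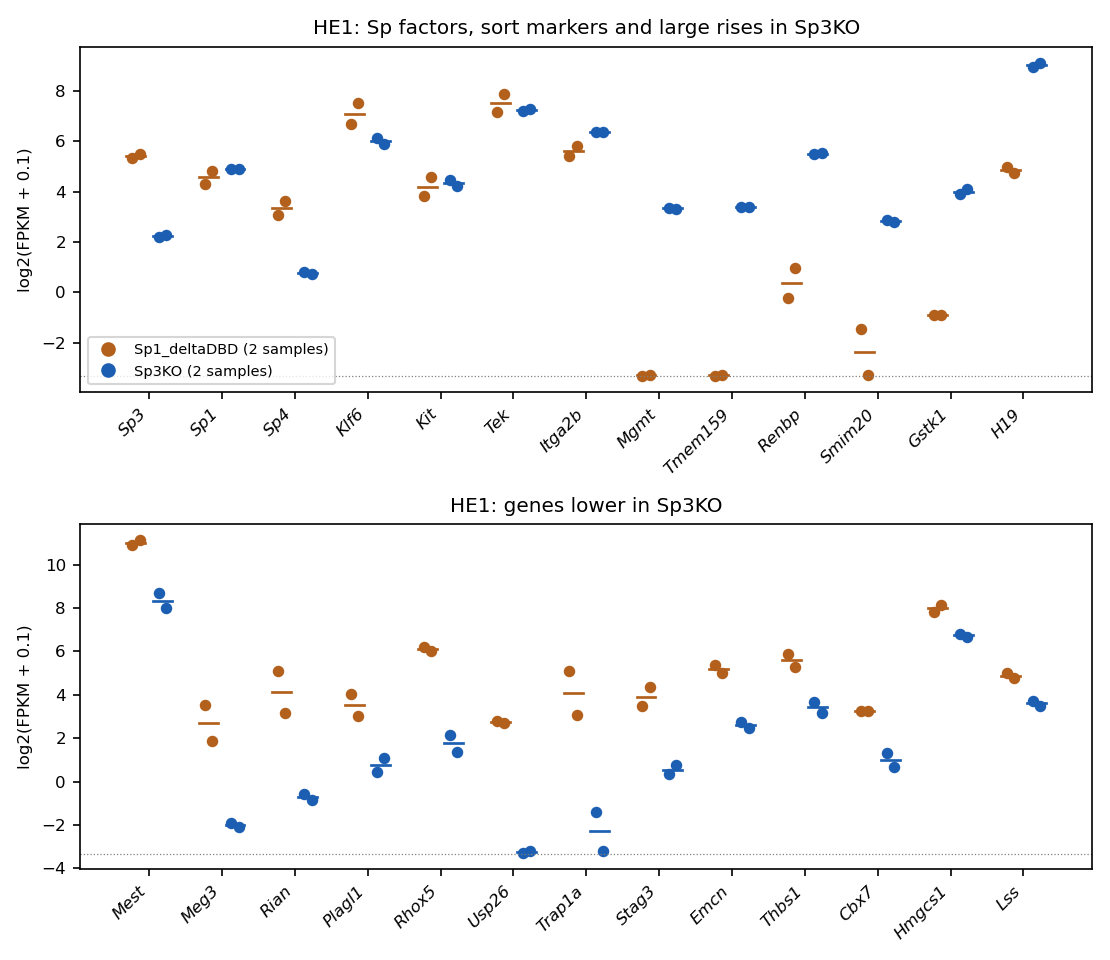
Levels of single genes in the 4 HE1 samples on the log2(FPKM + 0.1) scale, with Sp1_deltaDBD in brown, Sp3KO in blue, a point per sample, a bar at the mean of 2 and a dotted line at 0 FPKM. Sp3 and Sp4 were lower in Sp3KO, Kit and Tek overlapped, and Mgmt and Tmem159 lay at the dotted line in Sp1_deltaDBD and Usp26 in Sp3KO.

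Since Sp1 and Sp3 bind GC boxes, the promoters of 8 genes with large or shared differences are shown: the 3 largest rises and 3 largest falls with a single promoter in the RefSeq promoter table, Sp4, and the histone gene Hist1h2bk (H2bc12 in RefSeq). Each sequence is the 250 bases before the annotated start in GRCm38.p6, written 5′ to 3′ along the gene, and capitals mark the letters GGGCGG or, on the other strand, CCGCCC. The 3 genes that rose were
Smim20, chr5:53266856-53267105 (plus strand): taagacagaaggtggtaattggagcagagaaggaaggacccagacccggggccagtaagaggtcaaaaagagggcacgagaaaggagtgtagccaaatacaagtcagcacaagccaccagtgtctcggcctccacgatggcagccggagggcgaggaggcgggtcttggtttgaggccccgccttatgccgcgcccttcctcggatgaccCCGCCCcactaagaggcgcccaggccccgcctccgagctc
Renbp, chrX:73930851-73931100 (minus strand): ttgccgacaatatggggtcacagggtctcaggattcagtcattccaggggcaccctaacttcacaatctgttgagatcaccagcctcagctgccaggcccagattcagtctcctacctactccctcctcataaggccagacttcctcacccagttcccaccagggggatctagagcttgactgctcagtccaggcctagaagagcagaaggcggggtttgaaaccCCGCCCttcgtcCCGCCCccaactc
Gstk1, chr6:42245685-42245934 (plus strand): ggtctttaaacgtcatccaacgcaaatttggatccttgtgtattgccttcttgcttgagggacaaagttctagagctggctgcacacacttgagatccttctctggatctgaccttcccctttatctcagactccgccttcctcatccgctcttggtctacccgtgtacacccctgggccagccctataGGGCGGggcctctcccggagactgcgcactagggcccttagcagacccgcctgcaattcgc
The 3 genes that fell were
Trap1a, chrX:139333433-139333682 (plus strand): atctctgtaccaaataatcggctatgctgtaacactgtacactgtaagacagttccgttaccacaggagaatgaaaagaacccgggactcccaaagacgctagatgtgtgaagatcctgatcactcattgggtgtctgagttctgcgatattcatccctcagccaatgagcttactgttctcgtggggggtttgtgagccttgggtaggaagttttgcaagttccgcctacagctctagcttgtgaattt
Usp26, chrX:51801234-51801483 (minus strand): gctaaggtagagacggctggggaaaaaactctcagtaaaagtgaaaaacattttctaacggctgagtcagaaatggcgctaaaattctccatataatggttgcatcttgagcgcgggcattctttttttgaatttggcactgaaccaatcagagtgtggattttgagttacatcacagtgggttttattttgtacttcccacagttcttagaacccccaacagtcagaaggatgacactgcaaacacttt
Rian, chr12:109603695-109603944 (plus strand): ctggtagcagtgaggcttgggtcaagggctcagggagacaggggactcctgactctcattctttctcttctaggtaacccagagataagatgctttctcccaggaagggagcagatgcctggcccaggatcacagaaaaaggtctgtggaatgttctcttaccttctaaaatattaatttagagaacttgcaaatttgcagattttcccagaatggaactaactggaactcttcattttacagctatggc
The promoter of Sp4, which fell, and that of Hist1h2bk, which rose, were
Sp4, chr12:118301441-118301690 (minus strand): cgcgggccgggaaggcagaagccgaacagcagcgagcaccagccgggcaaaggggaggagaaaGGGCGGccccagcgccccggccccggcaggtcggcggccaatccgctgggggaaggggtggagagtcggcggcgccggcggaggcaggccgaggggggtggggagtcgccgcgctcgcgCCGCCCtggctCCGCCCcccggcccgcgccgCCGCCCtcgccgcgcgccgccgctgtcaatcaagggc
Hist1h2bk, chr13:22035571-22035820 (plus strand): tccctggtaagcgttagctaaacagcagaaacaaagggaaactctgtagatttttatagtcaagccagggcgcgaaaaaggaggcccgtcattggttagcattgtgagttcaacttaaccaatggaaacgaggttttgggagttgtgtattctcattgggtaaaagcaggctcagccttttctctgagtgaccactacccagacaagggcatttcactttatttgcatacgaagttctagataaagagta

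These letters occurred 1 time upstream of Smim20 and Gstk1, 2 times upstream of Renbp, 4 times upstream of Sp4 and not at all upstream of the other 4 genes. Of the 11530 genes of the table matched to the promoter table, 62.0% had the letters in at least 1 of their 250 base windows. The share was 59.2% of the genes called higher (462 of 780 matched) and 70.0% of those called lower in Sp3KO (554 of 791 matched). Over all 32851 windows of the promoter table, which include other genes and were counted singly and not per gene, the share was 32.7%. It is therefore not comparable with the shares of genes. The clustered histone genes had them in 20 of 61 matched members, and the genes of cholesterol and fatty acid synthesis in 18 of 22. The median GC content of the windows was 58.0% for genes called higher and 61.6% for genes called lower, which is the reverse of the order seen for the GC content of the transcripts. These shares describe letters, not binding.

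Most of the replication-dependent histone genes rose in Sp3KO. These genes lie in clusters, are transcribed in S phase, and give mRNAs without a poly(A) tail, which a total RNA library can capture. Of 69 clustered histone genes, 49 rose and 0 fell, against 6.67% of all genes called higher, and all 69 had a difference above 0, with a median of 1.88 against 0.0066 for all genes. By class, 4 of 6 H1, 13 of 19 H2a, 12 of 19 H2b, 10 of 12 H3 and 10 of 13 H4 genes rose. Hist1h2bk was at 329 and 198 FPKM in Sp1_deltaDBD and 669 and 677 FPKM in Sp3KO (1.40 ± 0.19, adjusted p = 0.000539), Hist1h1b at 331 and 316 FPKM in Sp1_deltaDBD and 558 and 591 FPKM in Sp3KO (0.83 ± 0.12, adjusted p = 0.000687), and Hist1h2bh at 154 and 95.3 FPKM in Sp1_deltaDBD and 301 and 299 FPKM in Sp3KO (1.304 ± 0.19, adjusted p = 0.000759). The summed level of the 69 genes was 12989 and 6255 FPKM in Sp1_deltaDBD and 25017 and 24404 FPKM in Sp3KO, so the Sp1_deltaDBD samples also differed from each other. The count was 57 without Sp1_deltaDBD replicate 1, but 14 without Sp3KO replicate 2, 12 without Sp3KO replicate 1 and 7 without Sp1_deltaDBD replicate 2. With a median transcript GC content of 57.9%, the histone genes belong to the GC-rich genes, and after the GC and length correction 35 rose with a median of 1.26. The part of GC content or of RNA capture in this difference was not tested. In the other populations, 30 of the 69 were higher in Sp3KO in HE2 (7.07% of all genes), 27 in Flk1+ cells (3.25%), 24 in ESC (3.94%) and 1 in progenitors (5.5%), and none was lower. Reads of near-identical histone genes can be split between copies: Hist2h3c1, chosen after its values were seen, was at 28.3 and 0.00251 FPKM in Sp1_deltaDBD and 103 and 119 FPKM in Sp3KO and was not called (adjusted p = 0.322).

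Genes of the cell cycle and of DNA replication differed by smaller amounts. Of 46 such genes, 13 rose and 1 fell (6.67% and 6.69% of all genes), and the median difference was 0.14. Plk1, a kinase of mitosis, was at 34.5 and 30.6 FPKM in Sp1_deltaDBD and 54.6 and 50.95 FPKM in Sp3KO (0.70 ± 0.10, adjusted p = 0.000648). The S phase genes Tk1, which makes thymidine phosphate, and Rfc4, a clamp loader subunit, were at 21.9 and 19.6 FPKM in Sp1_deltaDBD and 32.4 and 35.5 FPKM in Sp3KO (0.71 ± 0.13) and 14.7 and 14.97 FPKM in Sp1_deltaDBD and 24.2 and 27.1 FPKM in Sp3KO (0.79 ± 0.15). E2f2, an activator of S phase genes, was at 2.31 and 1.84 FPKM in Sp1_deltaDBD and 4.41 and 4.495 FPKM in Sp3KO (1.07 ± 0.17, adjusted p = 0.00139), and the replicative helicase gene Mcm2 differed by 0.42 ± 0.12 (adjusted p = 0.0407). Chosen with its values in view, Cdt1, the replication licensing factor, was at 28.4 and 27.2 FPKM in Sp1_deltaDBD and 54.5 and 55.3 FPKM in Sp3KO. The number that rose was 7 without Sp3KO replicate 1, 4 without Sp3KO replicate 2, 7 without Sp1_deltaDBD replicate 2 and 11 after the GC and length correction, and 0 fell in each of these cases and without Sp1_deltaDBD replicate 1.

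In a joint list of cell cycle inhibitors and targets of p53, 0 of 30 rose and 8 fell (6.69% of all genes were called lower), with a median of -0.23. No Cdkn gene was among the 8. Plk2, a p53-induced kinase, was at 75.6 and 138 FPKM in Sp1_deltaDBD and 34.3 and 27.2 FPKM in Sp3KO (-1.74 ± 0.22, adjusted p = 0.000298). Ccng1, a cyclin among the classical p53 targets, was at 147 and 227 FPKM in Sp1_deltaDBD and 70.2 and 66.03 FPKM in Sp3KO (-1.42 ± 0.17, adjusted p = 0.000223), and Mdm2, the ubiquitin ligase that degrades p53, at 81.6 and 119 FPKM in Sp1_deltaDBD and 54.04 and 45.9 FPKM in Sp3KO (-0.98 ± 0.17, adjusted p = 0.00284). The translesion polymerase Polk fell by 0.81 on the log2 scale. Trp53inp1, Perp, Gadd45b, all p53 or stress inducible, and Eda2r made up the other calls. Cdkn1a, the p21 inhibitor, was not called (30.1 and 31.8 against 29.8 and 22.5 FPKM, Sp1_deltaDBD first; adjusted p = 0.412). For Plk2, Ccng1 and Mdm2, the higher Sp1_deltaDBD value was that of replicate 2. The number that fell was 3 without Sp3KO replicate 2 and 5 without Sp1_deltaDBD replicate 2, and 10 after the GC and length correction.

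Imprinted genes, of which only the maternal or the paternal copy is normally active, included some of the largest differences. Of 36 genes of the Igf axis and imprinted genes, 2 rose and 8 fell (6.67% and 6.69% of all genes), with a median of -0.13. H19, the maternally expressed non-coding RNA next to Igf2, was at 31.6 and 26.3 FPKM in Sp1_deltaDBD and 501 and 558 FPKM in Sp3KO (18.3-fold; 4.19 ± 0.61, adjusted p = 0.000862). Its neighbour Igf2, a fetal growth factor, was at 1313 and 1893 FPKM in Sp1_deltaDBD and 1976 and 1028 FPKM in Sp3KO, overlapping between the groups (adjusted p = 0.902). Phlda2, a maternally expressed growth inhibitor further along chromosome 7, rose (0.177 and 0.00251 against 3.36 and 1.18 FPKM, Sp1_deltaDBD first; adjusted p = 0.000442).

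The maternally expressed Meg3 and Rian of the Dlk1 domain on chromosome 12 were both lower in Sp3KO. Meg3 was at 11.3 and 3.59 FPKM in Sp1_deltaDBD and 0.163 and 0.135 FPKM in Sp3KO (-4.70 ± 0.74, adjusted p = 0.00147), and Rian at 34.4 and 8.88 FPKM in Sp1_deltaDBD and 0.578 and 0.454 FPKM in Sp3KO (-4.84 ± 0.82, adjusted p = 0.00222). AF357425, on the same chromosome, was at 5.42 and 2.59 FPKM in Sp1_deltaDBD and at the lowest value in both Sp3KO samples (adjusted p = 0.00444). In each of the 3, Sp1_deltaDBD replicate 1 was the higher of its pair. The paternally expressed Mest was among the most abundant genes to differ, at 1893 and 2259 FPKM in Sp1_deltaDBD and 410.1 and 256 FPKM in Sp3KO (6.38-fold; -2.67 ± 0.28, adjusted p = 9.03e-05). Chosen after their values were seen, the paternally expressed Plagl1 (16.4 and 8.06 against 1.27 and 2.05 FPKM; adjusted p = 0.00671) and Peg3 (450.5 and 815 against 285 and 245 FPKM; adjusted p = 0.00463) and the maternally expressed Zim1 (28.8 and 38.99 against 10.4 and 8.78 FPKM; adjusted p = 0.0166) were also lower in Sp3KO, as were the growth factor binding protein gene Igfbp3 (adjusted p = 0.00712) and the RNA-binding protein gene Igf2bp3 (adjusted p = 0.02402). The imprinted state of these genes was not measured. The number that fell was 5 without either Sp3KO sample and without Sp1_deltaDBD replicate 2, 7 without Sp1_deltaDBD replicate 1 and 6, with a median of 0.039 over the list, after the GC and length correction.

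Germ cell genes, many of which are held silent in somatic cells by DNA methylation, had calls in 1 direction. Of 25 measured, 0 rose and 7 fell (6.69% of all genes), with a median of -0.47 (-0.033 without Sp1_deltaDBD replicate 1), and the summed level was 82.3 and 70.5 FPKM in Sp1_deltaDBD against 6.10 and 3.96 FPKM in Sp3KO. Rhox5 accounted for most of this sum. Only 2 of the 25 had a mean above 1 FPKM over the 4 samples, and 1 fell when the genes below that level were left out. With 1 in place of 0.1 added to the FPKM, 5 fell. The germ cell helicase Ddx4 was at 1.804 and 1.603 FPKM in Sp1_deltaDBD and 0.0872 and 0.009602 FPKM in Sp3KO (adjusted p = 0.000862). Tex19.1, a placental and germ cell gene, was at 1.65 and 0.637 FPKM, and Tdrd1, a piRNA pathway gene, at 0.668 and 0.5102 FPKM in Sp1_deltaDBD, and both were at the lowest value in both Sp3KO samples (adjusted p = 0.00104 and 0.00049). Tex11, Stk31 and Tdrd5 were the other calls, and none exceeded 1.06 FPKM. Between 5 and 7 were called lower without 1 library, and 6 after the GC and length correction. In HE2, 0 rose and 6 fell (8.01% of all genes were lower there), in Flk1+ cells 1 rose and 5 fell (3.35%), in ESC 2 rose and 7 fell (5.03%), and in progenitors 0 rose and 8 fell (5.67%).

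**Figure D4:**
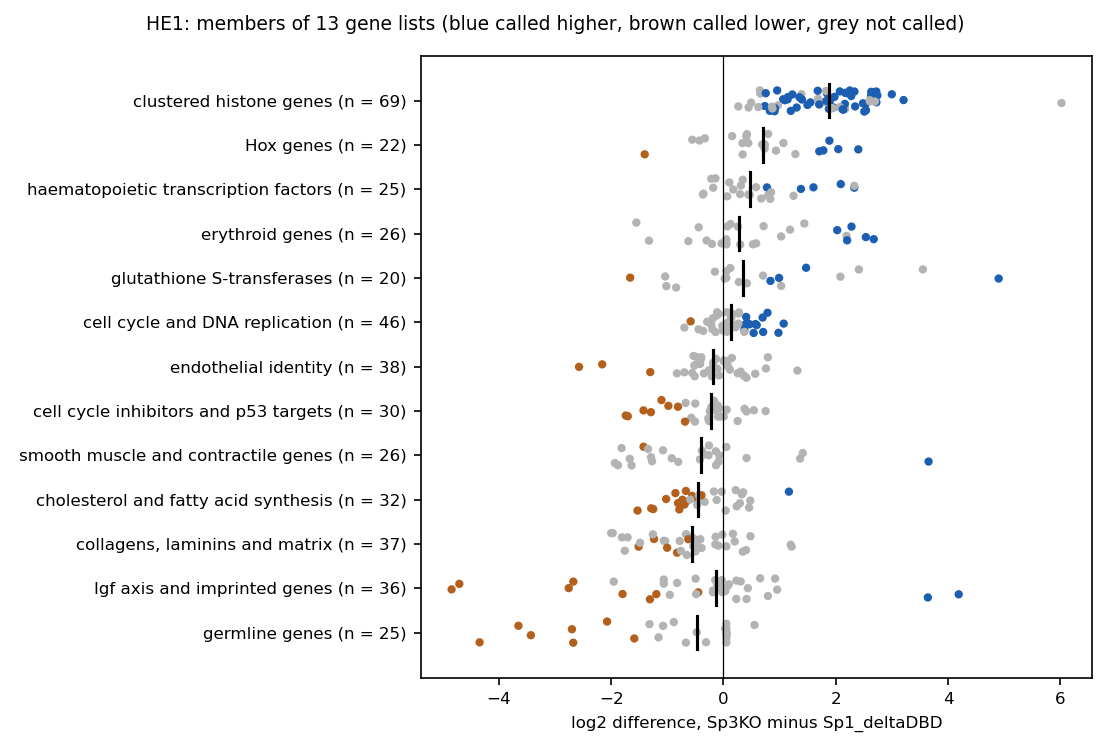
Log2 difference, Sp3KO minus Sp1_deltaDBD, of the members of 13 gene lists (points, with random vertical offset) and their median (black bar). Blue members were called higher, brown members lower, and grey members were not called; all 69 histone genes lie to the right of 0, and 14 of 32 cholesterol and fatty acid genes and 8 of 36 Igf axis and imprinted genes were called lower.

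Calls among blood transcription factors were all upwards. Of 25 hematopoietic transcription factors, 5 rose and 0 fell (6.67% and 6.69% of all genes), with a median difference of 0.47. Gata2, required for the endothelial to hematopoietic transition, was at 14.05 and 15.7 FPKM in Sp1_deltaDBD and 26.95 and 24.1 FPKM in Sp3KO (0.78 ± 0.22, adjusted p = 0.0326). Gfi1b, which represses endothelial genes, was at 1.04 and 0.797 FPKM in Sp1_deltaDBD and 4.73 and 5.24 FPKM in Sp3KO (2.33 ± 0.43, adjusted p = 0.00402), and Nfe2, a factor of megakaryocytes and erythroid cells, at 3.06 and 2.92 FPKM in Sp1_deltaDBD and 9.76 and 8.84 FPKM in Sp3KO (1.60 ± 0.23, adjusted p = 0.000862). Myb, a factor of definitive blood progenitors, was at 0.895 and 2.61 FPKM in Sp1_deltaDBD and 8.38 and 5.65 FPKM in Sp3KO (2.09 ± 0.45, adjusted p = 0.00876). Etv2, the early hemangioblast factor, chosen after its values were seen, was at 4.26 and 2.94 FPKM in Sp1_deltaDBD and 8.62 and 10.2 FPKM in Sp3KO (adjusted p = 0.0445). Runx1, the regulator of blood emergence, was at 3.99 and 4.24 FPKM in Sp1_deltaDBD and 5.82 and 4.72 FPKM in Sp3KO, with a difference of 0.34 ± 0.70 that was not called (adjusted p = 0.817), and Tal1 at 24.2 and 27.3 FPKM in Sp1_deltaDBD and 42.5 and 46.97 FPKM in Sp3KO (adjusted p = 0.0975). The count was 2 without Sp3KO replicate 1, 2 without Sp1_deltaDBD replicate 1 and 3 without Sp1_deltaDBD replicate 2, and 3 after the GC and length correction.

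The same held for the erythroid genes. Of 26 erythroid genes, 5 rose and 0 fell (6.67% and 6.69% of all genes), with a median of 0.28 that lay between 0.11 and 0.55 without 1 library. Only 12 of the 26 had a mean above 1 FPKM over the 4 samples. The embryonic beta-like globin Hbb-bh1 was at 12.6 and 7.24 FPKM in Sp1_deltaDBD and 63.6 and 59.9 FPKM in Sp3KO (2.68 ± 0.58, adjusted p = 0.00948), and the embryonic alpha-like globin Hba-x at 5.29 and 1.53 FPKM in Sp1_deltaDBD and 16.03 and 12.7 FPKM in Sp3KO (2.28 ± 0.52, adjusted p = 0.0128). Epor, the erythropoietin receptor, was at 0.796 and 1.52 FPKM in Sp1_deltaDBD and 4.82 and 4.81 FPKM in Sp3KO (2.03 ± 0.33, adjusted p = 0.00192), and Alas2, the erythroid enzyme of heme synthesis, at 1.75 and 2.82 FPKM in Sp1_deltaDBD and 8.97 and 12.5 FPKM in Sp3KO (2.20 ± 0.41, adjusted p = 0.00412). Hbb-y, chosen after its values were seen, was at 2.41 and 0.497 FPKM in Sp1_deltaDBD and 4.38 and 11.2 FPKM in Sp3KO (adjusted p = 0.0319). Globin genes are close copies of one another, and their split is uncertain. The count was 2 without Sp3KO replicate 2, 3 without Sp3KO replicate 1 and 2 without Sp1_deltaDBD replicate 2, and 6 after the GC and length correction.

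Some of these blood genes are also markers of the cells that follow HE1. In HE2, Hbb-bh1 was at 386 and 268 FPKM in Sp1_deltaDBD and 325 and 474 FPKM in Sp3KO. Nfe2 was at 39.6 and 42.5 against 55.95 and 51.7 FPKM, and Gfi1b at 17.8 and 15.9 against 28.1 and 29.2 FPKM, in the same order, all above the HE1 values. Gata2 and Etv2 did not have this pattern in Sp3KO, where HE2 was at 21.6 and 17.9 and 7.898 and 8.598 FPKM, below HE1. The direction of the erythroid genes did not last into progenitors. Of the 26, 2 were higher and 0 lower in Sp3KO in HE2 (7.07% and 8.01% of all genes). In progenitors 0 were higher and 11 lower (5.5% and 5.67% of all genes). Hbb-bh1 was there at 7014 and 5094 FPKM in Sp1_deltaDBD and 1111 and 2128 FPKM in Sp3KO. The summed level of the erythroid list in HE1 was 168 and 165 FPKM in Sp1_deltaDBD and 261 and 268 FPKM in Sp3KO, and both Sp3KO samples were also the higher for Itga2b and P2rx1. The part of HE2 or later cells within the gate in these differences was not tested. In bulk samples, fewer cells of a type and less RNA per cell cannot be told apart.

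Genes of other blood lineages were called at shares nearer to those of all genes. Among 22 megakaryocyte and platelet genes, 0 rose and 2 fell (9.09%, beside 6.69% of all genes): Thbs1, a secreted matrix protein also made by endothelium (59.4 and 38.3 FPKM in Sp1_deltaDBD and 12.7 and 8.96 FPKM in Sp3KO; adjusted p = 0.00657), and the collagen receptor subunit Itga2 (adjusted p = 0.0411). Falls numbered 0 without Sp3KO replicate 2, where 1 rose, 1 without Sp3KO replicate 1 or Sp1_deltaDBD replicate 1, and 1 after the GC and length correction. Gp1bb was near the floor in all 4 samples. Of 23 myeloid and immune genes, 0 rose, and Fcgr3, an Fc receptor, was the 1 that fell (0.897 and 0.576 against 0.219 and 0.009602 FPKM, Sp1_deltaDBD first; adjusted p = 0.0416), with 0 to 2 falls without 1 library. The macrophage receptor Csf1r was at 0.745 and 0.323 against 0.333 and 0.317 FPKM and Spi1, the myeloid factor PU.1, at 0.343 and 0.197 against 0.443 and 0.266 FPKM. Of 10 genes that the study names in its single-cell experiment, 1 rose, Hba-x, and 3 did without Sp1_deltaDBD replicate 1 and 0 without any other library. Among all genes, 6.67% were called higher. The single-cell experiment set KIT+ Sp1_deltaDBD cells beside wild type cells, so its statements are on another comparison than the one made here. Mdk, a heparin-binding growth factor, at 43.8 and 22.9 against 72.2 and 58.5 FPKM (adjusted p = 0.0748), Crip1 at 11.1 and 4.94 against 32.95 and 32.1 FPKM (adjusted p = 0.237), Cd34 at 92.1 and 29.5 against 82.4 and 72.6 FPKM, Klf2 at 25.4 and 24.5 against 35.5 and 27.1 FPKM and Eng at 111 and 115 against 143 and 136 FPKM were not called.

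Of 38 endothelial genes measured, 0 rose and 3 fell (7.89%, near the 6.69% of all genes called lower), with a median of -0.18. Emcn, an endothelial surface mucin, was at 41.5 and 31.6 FPKM in Sp1_deltaDBD and 6.703 and 5.39 FPKM in Sp3KO (5.94-fold lower; -2.57 ± 0.54, adjusted p = 0.00765). Apln, the ligand of the apelin receptor, was at 4.91 and 3.65 FPKM in Sp1_deltaDBD and 1.22 and 0.611 FPKM in Sp3KO (-2.16 ± 0.56, adjusted p = 0.0228), and Robo4, an endothelial guidance receptor, at 22.6 and 17.4 FPKM in Sp1_deltaDBD and 9.11 and 6.96 FPKM in Sp3KO (-1.303 ± 0.39, adjusted p = 0.0405). Cdh5 differed by -0.51 ± 0.34 (adjusted p = 0.363). The summed level of the list was 2900 and 3360 FPKM in Sp1_deltaDBD and 2903 and 2792 FPKM in Sp3KO, so the groups overlapped. The number that fell was 2 without Sp3KO replicate 1, 1 without either Sp1_deltaDBD sample and 0 without Sp3KO replicate 2.

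Matrix genes were called in 1 direction, with a wide spread between replicates. Of 37 collagens, laminins and other matrix genes, 0 rose and 5 fell (6.69% of all genes were called lower), and 29 had a difference below 0, with a median of -0.56. Col5a1, a fibrillar collagen, was at 37.5 and 18.1 FPKM in Sp1_deltaDBD and 11.1 and 7.37 FPKM in Sp3KO (-1.51 ± 0.34, adjusted p = 0.0112). Lama1 and Lamb1, laminins of the basement membrane, were at 14.1 and 5.81 FPKM in Sp1_deltaDBD and 3.696 and 3.89 FPKM in Sp3KO (adjusted p = 0.0238) and 61.2 and 56.9 FPKM in Sp1_deltaDBD and 40.1 and 36.4 FPKM in Sp3KO (adjusted p = 0.0179), the proteoglycan Vcan at 30.4 and 35.8 FPKM in Sp1_deltaDBD and 16.7 and 16.2 FPKM in Sp3KO (adjusted p = 0.0188), and Col4a1, chosen after its values were seen, at 648 and 735 FPKM in Sp1_deltaDBD and 459 and 331 FPKM in Sp3KO (adjusted p = 0.0491). Col1a1 was at 4.73 and 0.144 against 3.07 and 1.86 FPKM and was not called (adjusted p = 0.595). The count of falls was 0 without Sp3KO replicate 2, 1 without Sp3KO replicate 1, 2 without either Sp1_deltaDBD sample and 6 after the GC and length correction.

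Of 26 smooth muscle and contractile genes, 1 rose and 1 fell (3.85% each, beside 6.67% and 6.69% of all genes), and the median was -0.40. Tpm1, a tropomyosin of stress fibers, was at 797 and 604 FPKM in Sp1_deltaDBD and 307 and 218 FPKM in Sp3KO (-1.42 ± 0.29, adjusted p = 0.00744). Des, the muscle intermediate filament, rose from 0.151 and 0.0872 to 2.87 and 2.41 FPKM (3.65 ± 0.45, adjusted p = 0.000289). Acta2, smooth muscle actin, was at 631 and 139 FPKM in Sp1_deltaDBD and 127 and 71.7 FPKM in Sp3KO. The first Sp1_deltaDBD sample stood apart, and the difference was not called (adjusted p = 0.316). The summed level of the list was 2301 and 1208 FPKM in Sp1_deltaDBD and 827 and 635 FPKM in Sp3KO. The median was -0.14 without Sp1_deltaDBD replicate 1, -1.09 without Sp1_deltaDBD replicate 2, and -0.70 without Sp3KO replicate 2 and after the GC and length correction. Falls numbered 0 without Sp3KO replicate 2, and 2 without Sp1_deltaDBD replicate 2 and after the correction.

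Among the 4 metabolic lists, synthesis of cholesterol and fatty acids had the most calls in one direction. Of its 32 genes, 1 rose and 14 fell (6.67% and 6.69% of all genes), with a median of -0.46. Hmgcs1, the cytosolic synthase at the entry to the pathway, was at 226 and 284 FPKM in Sp1_deltaDBD and 113 and 100.5 FPKM in Sp3KO (-1.25 ± 0.20, adjusted p = 0.00147). Lss, which forms lanosterol, was at 31.6 and 27.3 FPKM in Sp1_deltaDBD and 13.1 and 10.9 FPKM in Sp3KO (-1.29 ± 0.18, adjusted p = 0.000579). Chosen after their values were seen, Idi1 was at 45.9 and 45.1 FPKM in Sp1_deltaDBD and 24.6 and 20.4 FPKM in Sp3KO, Fdft1, the squalene synthase, at 55.9 and 44.04 FPKM in Sp1_deltaDBD and 31.8 and 28.02 FPKM in Sp3KO, and Insig1, a sterol sensor, at 56.4 and 56.1 FPKM in Sp1_deltaDBD and 40.4 and 36.1 FPKM in Sp3KO. The gene that rose was Srebf1, which codes for a transcription factor of lipid synthesis, mainly of fatty acids, at 11.1 and 8.302 FPKM in Sp1_deltaDBD and 23.2 and 20.3 FPKM in Sp3KO (1.17 ± 0.15, adjusted p = 0.000457). The groups did not overlap in any of these genes, as in every called gene. The number that fell was 4 without Sp3KO replicate 2, 7 without Sp1_deltaDBD replicate 2 and 8 without Sp3KO replicate 1, and 13 after the GC and length correction.

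In glycolysis and the hypoxia response, 2 of 33 genes rose and 4 fell (6.06% and 12.1%, beside 6.67% and 6.69% of all genes), and 3 fell after the GC and length correction. The phosphofructokinase subunits Pfkm (13.04 and 14.6 FPKM in Sp1_deltaDBD and 4.52 and 4.93 FPKM in Sp3KO; -1.53 ± 0.13, adjusted p = 1.29e-05) and Pfkl (23.8 and 25.8 FPKM in Sp1_deltaDBD and 14.6 and 13.04 FPKM in Sp3KO; adjusted p = 0.0166) both fell, as did the oxygen-regulated factor Hif1a (60.7 and 76.1 FPKM in Sp1_deltaDBD and 44.4 and 48.4 FPKM in Sp3KO; -0.55 ± 0.10, adjusted p = 0.00428) and Bnip3, a mitophagy receptor (8.73 and 9.63 FPKM in Sp1_deltaDBD and 3.11 and 3.31 FPKM in Sp3KO; -1.49 ± 0.29, adjusted p = 0.00484). The glucose transporter Slc2a1 overlapped between the groups (adjusted p = 0.886). Pfkfb4 (adjusted p = 0.0272) and Eno2 (adjusted p = 0.0332), chosen after their values were seen, rose, but neither was called without any 1 of the libraries or after the GC and length correction. For amino acid synthesis and stress, 3 of 30 genes rose and 1 fell, again beside 6.67% and 6.69% of all genes. Phgdh, the first enzyme of serine synthesis, was at 17.3 and 15.9 FPKM in Sp1_deltaDBD and 34.7 and 32.9 FPKM in Sp3KO (1.02 ± 0.18, adjusted p = 0.00335), Pck2, the mitochondrial carboxykinase, at 2.74 and 2.17 FPKM in Sp1_deltaDBD and 9.01 and 9.45 FPKM in Sp3KO (adjusted p = 0.0149), and Shmt2, a mitochondrial serine enzyme, at 28.3 and 19.5 FPKM in Sp1_deltaDBD and 42.1 and 37.8 FPKM in Sp3KO (adjusted p = 0.0248). Gpt2 was the gene that fell (adjusted p = 0.0498), and Atf4, the stress regulator of this pathway, was not called (adjusted p = 0.336). The number that rose was 1 without either Sp3KO sample and without Sp1_deltaDBD replicate 2, and 0 fell without any 1 of the libraries.

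Among 20 glutathione S-transferases, 4 rose and 1 fell (6.67% and 6.69% of all genes). Beside Gstk1, Gsta4 was at 85.97 and 102 FPKM in Sp1_deltaDBD and 181 and 155 FPKM in Sp3KO (adjusted p = 0.00756), Gstt2 at 1.54 and 0.701 FPKM in Sp1_deltaDBD and 2.93 and 3.23 FPKM in Sp3KO (adjusted p = 0.0229) and Gstm2, chosen after its values were seen, at 12.1 and 8.58 FPKM in Sp1_deltaDBD and 20.9 and 19.9 FPKM in Sp3KO (adjusted p = 0.0462). Mgst3, a microsomal member, was lower in Sp3KO (12.4 and 7.34 FPKM in Sp1_deltaDBD and 3.14 and 2.78 FPKM in Sp3KO; -1.66 ± 0.32, adjusted p = 0.00481). The number that rose was 7 without Sp1_deltaDBD replicate 1, 1 without Sp3KO replicate 1 and 2 without either of the other libraries.

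Of 22 Hox genes, the positional regulators of the body axis, 5 rose and 1 fell (6.67% and 6.69% of all genes), and the median was 0.71, or 0.25 without Sp3KO replicate 1. Hoxd4 was at 1.25 and 1.95 FPKM in Sp1_deltaDBD and 6.197 and 5.09 FPKM in Sp3KO (1.78 ± 0.37, adjusted p = 0.00799), and its neighbours Hoxd3 (0.0915 and 0.369 against 1.96 and 1.12 FPKM, Sp1_deltaDBD first; adjusted p = 0.00239) and Hoxd1 (0.178 and 0.2799 against 1.34 and 0.682 FPKM; adjusted p = 0.0105) were low but also higher in Sp3KO. Hoxd9 (adjusted p = 0.0461) and Hoxb6 (adjusted p = 0.0403) were chosen after their values were seen. Hoxc13 fell from 0.138 and 0.226 FPKM to the floor (adjusted p = 0.0402). The number that rose was 1 to 3 without 1 library, lowest without Sp3KO replicate 1, and 4 after the GC and length correction.

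The signalling pathways were called in shares near or below those of all genes (6.67% higher and 6.69% lower). In the Notch pathway, 2 of 25 genes rose and 2 fell. The glycosyltransferase Mfng, which modifies Notch receptors, was at 0.709 and 0.515 FPKM in Sp1_deltaDBD and 2.94 and 3.35 FPKM in Sp3KO (2.20 ± 0.38, adjusted p = 0.00262), and the ligand Dll4 at 1.21 and 1.13 FPKM in Sp1_deltaDBD and 2.23 and 3.14 FPKM in Sp3KO (adjusted p = 0.0492). The receptor Notch3 (13.6 and 20.4 FPKM in Sp1_deltaDBD and 9.699 and 9.18 FPKM in Sp3KO; adjusted p = 0.0187) and the target gene Hes1 (13.6 and 28.4 FPKM in Sp1_deltaDBD and 9.08 and 6.27 FPKM in Sp3KO; adjusted p = 0.0398) were lower in Sp3KO, whereas Notch1 overlapped (adjusted p = 0.753). In the BMP and TGF-beta pathway, 2 of 34 rose (5.88%) and 1 fell (2.94%): Tgfb1, a ligand, was at 8.49 and 4.32 FPKM in Sp1_deltaDBD and 16.9 and 15.9 FPKM in Sp3KO (adjusted p = 0.0131), Bmper, a BMP-binding protein of endothelium, at 2.94 and 3.76 FPKM in Sp1_deltaDBD and 9.43 and 7.75 FPKM in Sp3KO (adjusted p = 0.0121), and the receptor Tgfbr1 at 18.4 and 25.7 FPKM in Sp1_deltaDBD and 11.04 and 9.57 FPKM in Sp3KO (adjusted p = 0.0113). In the Wnt pathway, Tcf7, a nuclear effector, rose (0.847 and 1.17 FPKM in Sp1_deltaDBD and 5.35 and 6.29 FPKM in Sp3KO; adjusted p = 0.0163) and the receptor Fzd1 fell (2.84 and 5.59 FPKM in Sp1_deltaDBD and 1.48 and 1.31 FPKM in Sp3KO; adjusted p = 0.0195), 1 each of 38 (2.63%). All of these calls but Mfng were lost without at least 1 library. After the GC and length correction, 1 rose and 2 fell in the Notch, 2 and 2 in the BMP and TGF-beta and 3 and 2 in the Wnt pathway.

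Of 25 immediate early genes, which respond to stimulation and to tissue handling, 2 rose and 4 fell (6.67% and 6.69% of all genes). Fosb was at 2.47 and 3.47 FPKM in Sp1_deltaDBD and 7.96 and 11.9 FPKM in Sp3KO (adjusted p = 0.0141) and Ier2 at 34.6 and 22.8 FPKM in Sp1_deltaDBD and 61.8 and 49.5 FPKM in Sp3KO (adjusted p = 0.0143), and Fos overlapped (adjusted p = 0.882). Cyr61, a matricellular gene, was at 125 and 125 FPKM in Sp1_deltaDBD and 65.97 and 54.6 FPKM in Sp3KO (adjusted p = 0.0121), and its relative Ctgf, chosen after its values were seen with Fosl2 (adjusted p = 0.0393), at 72.5 and 45.1 FPKM in Sp1_deltaDBD and 20.98 and 14.1 FPKM in Sp3KO (adjusted p = 0.0448). Maff was the other gene that fell (adjusted p = 0.0318). The number that fell was 0 without Sp3KO replicate 2, 0 without Sp1_deltaDBD replicate 2, 2 without Sp1_deltaDBD replicate 1 and 3 without Sp3KO replicate 1, and after the GC and length correction 1 rose and 5 fell. Their relation to cell handling was not tested.

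The difference between the mutants was then set beside that in the other populations, which have samples of their own for both genotypes. Of the 1962 genes called in HE1, 1233 were called in the same direction in HE2 (62.8% of the HE1 calls and 55.7% of the 2215 HE2 calls, 15.1% of all genes). In Flk1+ cells, from which the culture starts, 549 were called in the same direction (28.0% and 56.7% of 969 calls, 6.6% of all genes), in ESC 517 (26.4% and 39.3% of 1317 calls, 8.97% of all genes) and in progenitors 740 (37.7% and 45.1% of 1640 calls, 11.2% of all genes). Called in the same direction in all 5 populations were 198 genes, 80 higher and 118 lower in Sp3KO. In Sp1_deltaDBD, samples of HE1 deviated together with the samples of the same number in HE2 (correlation across genes 0.641), progenitors (0.447), Flk1+ cells (0.407) and ESC (0.235), and in Sp3KO these values were 0.149, 0.0411, -0.0874 and 0.0703, so the populations are not independent. An interaction test across all genes, HE1 difference minus the difference elsewhere, called 2 genes against HE2 (0.0136%), 28 against Flk1+ cells (0.191%) and 124 against ESC (0.844%). Under the alternatives these counts ranged from 0 to 8, from 1 to 86 and from 23 to 347.

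Several of the largest HE1 rises exceeded the difference in ESC. Renbp was at 26.4 and 11.4 FPKM in Sp1_deltaDBD ESC and 17.97 and 20.5 FPKM in Sp3KO ESC, where the groups overlapped. In Flk1+ cells it was at 4.599 and 4.84 against 21.5 and 25.2 FPKM. Its difference was larger in HE1 than in ESC by 5.002 ± 0.52 (adjusted p = 0.000722) and than in Flk1+ cells by 2.87 ± 0.52 (adjusted p = 0.04504). Mgmt was at 9.79 and 4.11 against 10.7 and 12.1 FPKM in ESC and at 0.203 and 0.0324 against 7.47 and 8.45 FPKM in Flk1+ cells, and the HE1 difference exceeded that in ESC by 5.80 ± 0.56 (adjusted p = 0.000376). In Sp3KO cells Mgmt stayed between 7.47 and 12.1 FPKM in every population, whereas in Sp1_deltaDBD cells it did not exceed 0.00251 FPKM in HE1 and HE2. H19 was low in ESC of both genotypes (5.02 and 2.95 against 2.59 and 3.25 FPKM), and its HE1 difference exceeded that in ESC by 4.59 ± 0.87 (adjusted p = 0.0289). A further fit, the replicate block, paired same-numbered samples of both genotypes within each population. It did not model the shared deviation of same-numbered Sp1_deltaDBD samples across populations. In that fit, the interactions of Renbp (adjusted p = 0.023) and Mgmt (adjusted p = 0.023) with ESC were called. Those of H19 with ESC (adjusted p = 0.0817) and of Renbp with Flk1+ cells (adjusted p = 0.1399) were not.

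**Figure D5:**
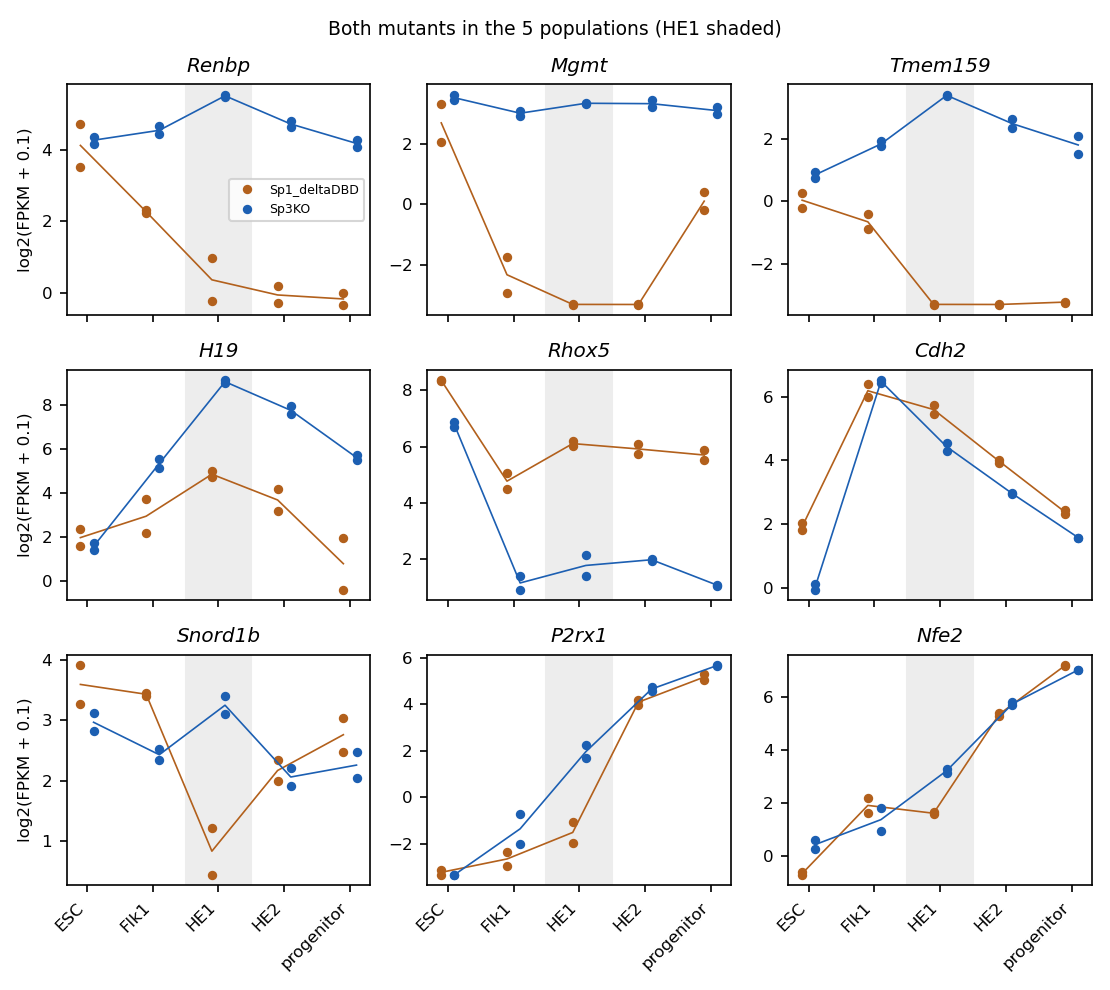
Levels of 9 genes, log2(FPKM + 0.1), in both mutants across the 5 populations, with a point per sample (2 per group), lines through the group means and HE1 shaded. The Renbp lines run together in ESC and apart in HE1, and the Mgmt lines lie closer in ESC than in HE1. Rhox5 is higher in Sp1_deltaDBD throughout, and for Snord1b the genotypes lie apart in opposite directions in HE1 and Flk1.

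For other genes the order of the genotypes was not the same. Cdh2, which encodes N-cadherin, was at 43.95 and 52.97 against 23.4 and 19.6 FPKM in HE1 (Sp1_deltaDBD first), but at 83.5 and 63.3 against 91.9 and 86.8 FPKM in Flk1+ cells, an interaction of -1.47 ± 0.22 (adjusted p = 0.02695). Snord1b, a small nucleolar RNA, was at 2.23 and 1.25 against 10.5 and 8.45 FPKM in HE1 and at 10.5 and 10.9 against 5.64 and 4.95 FPKM in Flk1+ cells (3.43 ± 0.42, adjusted p = 0.00835). Nfe2 was higher in Sp3KO in HE1 and at 2.99 and 4.54 against 3.42 and 1.85 FPKM in Flk1+ cells, where the groups overlapped (2.14 ± 0.33, adjusted p = 0.0292). Against HE2, the 2 genes called, Spink8 and Ccdc178, were chosen after their values were seen. In HE1 both were below 1 FPKM in all 4 samples, and in HE2 Spink8 was at 1.15 and 2.07 against 0.00647 and 0.0143 FPKM. P2rx1, Snord1b, Pmm1 and Ccdc28a, which the naming rule takes from this comparison, did not pass the threshold. Sp4 was lower in Sp3KO in every population, at 8.67 and 12.4 against 2.05 and 2.32 FPKM in ESC and 12.2 and 12.7 against 4.4 and 5.203 FPKM in Flk1+ cells. Rhox5 was lower in Sp3KO in every population, but by less in ESC (325 and 331 against 116 and 103 FPKM; interaction -2.76 ± 0.35, adjusted p = 0.00239). With the replicate block, that of Rhox5 was called (adjusted p = 0.00968), and those named above for Cdh2 (adjusted p = 0.127), Snord1b (adjusted p = 0.0885) and Nfe2 (adjusted p = 0.158) with Flk1+ cells and for Spink8 and Ccdc178 with HE2 (adjusted p = 0.194 for both) were not.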

How the data were processed

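Total RNA libraries (TruSeq Stranded, Ribo-Zero) of 30 samples were sequenced. The authors aligned reads to mm10 with HISAT2 2.1.0, calculated FPKM per gene with StringTie 1.3.3 (per the submitters' processing notes, which also list bedtools), removed genes that reached 1 FPKM in no sample, and applied quantile normalisation; the deposited FPKM values are on a linear scale. Quantile normalisation fixes the distribution of each sample, so a shift common to all genes would not be seen, and between 942 and 1346 genes per HE1 sample share its lowest value.

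Samples were grouped by their deposited labels. The source of the 2 replicates is given by the study as biological. From the FPKM values, log2(FPKM + 0.1) was fitted with limma 3.58.1 (R 4.3.3) as the 10 group means of the 20 mutant samples, with an intensity trend (10 residual and 3.63 prior degrees of freedom), and p-values were two-sided and Benjamini-Hochberg adjusted over 14685 genes. Same-numbered samples of different populations deviated together in Sp1_deltaDBD (correlation of HE1 with the others 0.235 to 0.641 across genes), so the samples of the fit are not fully independent. The method was tested on simulated data with independent noise in each sample, so that test did not cover this dependence. GC content and length were those of the longest transcript in GENCODE (GRCm38), with 14370 symbols matched directly, 185 by an older symbol and 130 not matched. Promoters came from the RefSeq table (GRCm38.p6), in which 11530 of the genes were found. Calculations and figures used Python 3.11.15, pandas 2.3.3, numpy 2.4.6 and matplotlib 3.10.9.

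The comparison and the gene lists were chosen with earlier results of these data known. Named are Sp1, Sp3, the 3 sort markers, the 15 largest called rises and 15 largest called falls whose higher mean exceeded 3 FPKM and whose samples do not overlap, the first gene and the 4 called genes with the smallest adjusted p of each list, the 5 genes with the smallest adjusted p of each interaction with a mean above 3 FPKM in 1 of the groups, and the genes of the study's single-cell text. A few genes that the rule takes are not reported here. Other genes are named as chosen after their values were seen; this holds for Eda2r, Ddx3y, Eif2s3y, Uty, Lars2, Rps27 and Rps27rt and for the list members counted beyond the 4, such as Trp53inp1, Perp, Gadd45b, Tex11, Stk31, Tdrd5, Igfbp3 and Igf2bp3. Alternatives were another pseudocount, a filter on low genes, a replicate block, a GC and length correction, other sets of samples for the spread, 2 other centrings, no trend and leaving out each HE1 sample.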

Additional observations from a re-analysis of the deposited data

Results flagged for a closer look

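The difference between the mutants in HE1 was tested against the difference in ESC, Flk1+ cells and HE2 for each named gene, and those that passed are given as the HE1 difference minus the other one, on the log2 scale with its standard error. The replicate block pairs same-numbered samples of the genotypes within a population and does not model same-numbered samples across populations. With it, 10 of the 19 given against ESC, 1 of the 11 against Flk1+ cells (Gfi1b) and 0 of the 2 against HE2 were called. Most of those against Flk1+ cells and HE2 thus depend on leaving the block out. The causes were not tested.

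Against ESC, the difference was more positive in HE1 for Tmem159 by 5.87 ± 0.39 (adjusted p = 1e-05), Mgmt by 5.80 ± 0.56 (adjusted p = 0.000376), Gstk1 by 5.08 ± 0.77 (adjusted p = 0.00819), Renbp by 5.002 ± 0.52 (adjusted p = 0.000722), H19 by 4.59 ± 0.87 (adjusted p = 0.0289) and P2rx1 by 3.57 ± 0.56 (adjusted p = 0.00984). The same was found for Got1l1 by 3.31 ± 0.71 (adjusted p = 0.0474), Ctsz by 3.25 ± 0.51 (adjusted p = 0.0104), Tep1, a telomerase-associated protein gene, by 3.09 ± 0.38 (adjusted p = 0.00239), Snord1b by 3.05 ± 0.42 (adjusted p = 0.00517), Cers4 by 2.73 ± 0.39 (adjusted p = 0.00553), Tal1 by 2.29 ± 0.42 (adjusted p = 0.0283), Nipsnap1 by 2.05 ± 0.31 (adjusted p = 0.00816), Phgdh by 1.79 ± 0.26 (adjusted p = 0.00627) and Lpar6, a lysophospholipid receptor gene, by 1.58 ± 0.17 (adjusted p = 0.00102). Lpar6 overlapped between the genotypes in HE1 (45.1 and 58.1 against 46.7 and 43.2 FPKM, Sp1_deltaDBD first) but not in ESC (7.71 and 7.15 against 2.199 and 2.01 FPKM). It was more negative in HE1 for Trap1a (-6.09 ± 1.29 (adjusted p = 0.0473)), Rhox5 (-2.76 ± 0.35 (adjusted p = 0.00239)), Cbx7, a Polycomb subunit gene (-2.19 ± 0.31 (adjusted p = 0.00553)), and Pmm1, a mannose enzyme gene (-1.40 ± 0.27 (adjusted p = 0.0333)).

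Against Flk1+ cells, the difference was more positive in HE1 for Tmem159 by 4.20 ± 0.39 (adjusted p = 0.000699), Atp2a3 by 3.59 ± 0.56 (adjusted p = 0.0292), Snord1b by 3.43 ± 0.42 (adjusted p = 0.00835), Gfi1b by 3.41 ± 0.61 (adjusted p = 0.04504), Renbp by 2.87 ± 0.52 (adjusted p = 0.04504), Tep1 by 2.64 ± 0.38 (adjusted p = 0.0242), Nfe2 by 2.14 ± 0.33 (adjusted p = 0.0292) and Nipsnap1 by 2.12 ± 0.31 (adjusted p = 0.0242). It was more negative for Gadd45b (-2.24 ± 0.39 (adjusted p = 0.04504)), Igfbp3 (-2.09 ± 0.38 (adjusted p = 0.04504)) and Cdh2 (-1.47 ± 0.22 (adjusted p = 0.02695)). Against HE2, Spink8 gave 4.13 ± 0.55 (adjusted p = 0.0446) and Ccdc178 3.36 ± 0.47 (adjusted p = 0.0458).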

How the results depend on the processing

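The number of HE1 calls depended on the libraries and on the samples that gave the spread. Of the 151 called genes named here, 99 stayed called under every alternative that kept 2 samples a group and a shared spread. None of these genes changed sign under any alternative. With the HE1 samples alone, 24 genes were called, 13 higher and 11 lower. Leaving out 1 HE1 library gave 580 to 1721 calls, 272 to 899 higher and 308 to 822 lower. The fold rule gave 774 higher and 887 lower without a minimum level, 194 and 133 when all 4 pairs had to pass, and 323 to 582 and 334 to 443 without 1 library.

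Same-numbered samples of the genotypes had a correlation of deviations across genes of 0.0339 in HE1 and -0.0708 to 0.192 in the other populations, so the numbers do not pair them. The replicate block pairs them within each population all the same. With it, 1456 genes were called, and 1447 with the block and the GC and length correction.

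The interactions were less stable. Against HE2, 0 genes were called with a pseudocount of 1, with the filter on low genes and with the replicate block, alone or with the GC correction, 1 with the spread of all 30 samples, 8 without the trend and 0 to 2 without 1 library. Against Flk1+ cells the counts were 86 with a pseudocount of 1, 1 with the block, 64 with the GC correction, 4 with both, 64 with all 30 samples, 14 with the 12 samples of ESC, Flk1 and HE1, 62 without the trend and 2 to 21 without 1 library. Against ESC they were 347 with a pseudocount of 1, 23 with the block, 232 with the GC correction, 69 with both, 200 without the trend and 33 to 87 without 1 library.

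Other sign changes were of genes not called in HE1. Leaving out 1 library moved Kit between -0.24 and 0.54, Tek between -0.64 and 0.088, Gp1bb between -1.02 and 0.15, Csf1r between -0.99 and 0.0063, Apoa2 between -2.22 and 0.33, Notch1 between -0.041 and 0.32, Bmp2 between -0.045 and 0.84, Wnt2 between -0.16 and 0.13, Igf2 between -0.62 and 0.33, Col1a1 between -0.95 and 3.35, Fos between -0.37 and 0.11, Slc2a1 between -0.35 and 0.64, Dnmt1 between -0.19 and 0.17, Cd34 between -0.25 and 1.39 and Ccdc178 between -0.0030 and 0.11. With the GC and length correction, with and without the block, Slc2a1 was at -0.0038, Fau at -0.22, Klf2 at -0.19, Spi1 at -0.055 and Lpar6 at 0.29. Chromosome centring put Dnmt1 at 0.026. The causes were not tested. Since depth is unknown, counting error of low values was not computed.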

Other observations

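Of 35 enzymes and subunits of chromatin and DNA methylation, 2 rose (5.71%) and 3 fell (8.57%), near the 6.67% and 6.69% of all genes. Without 1 library, 0 rose except without Sp1_deltaDBD replicate 2 (2), and 1 fell without either Sp3KO sample and 2 without either Sp1_deltaDBD sample. After the GC and length correction 3 rose and 2 fell. The Polycomb subunits Cbx7 (9.51 and 9.37 against 2.38 and 1.52 FPKM, Sp1_deltaDBD first; -2.25 ± 0.22, adjusted p = 4.77e-05) and Cbx2 (11.1 and 10.2 against 6.53 and 6.397 FPKM; adjusted p = 0.01297) were lower in Sp3KO, as was the deacetylase Hdac2 (74.4 and 88.8 against 59.8 and 56.2 FPKM; adjusted p = 0.0166). Dnmt3b, a de novo DNA methyltransferase, was higher (11.4 and 14.8 against 23.1 and 22.6 FPKM; 0.81 ± 0.20, adjusted p = 0.0164), as was Jarid2, chosen after its values were seen (9.68 and 12.95 against 17.8 and 16.02 FPKM; adjusted p = 0.0295). Dnmt1, the maintenance methyltransferase, overlapped (93.3 and 120.5 against 105 and 105 FPKM). Of 85 cytosolic ribosomal protein genes, 3 rose (3.53%) and 4 fell (4.71%), both below the shares of all genes, among them Rpl24 (725 and 789 against 542 and 569.9 FPKM; adjusted p = 0.01002) and Rpl21 (358 and 346 against 253 and 271 FPKM; adjusted p = 0.0103) downwards and Rps29 (1007 and 977 against 1493 and 1545 FPKM; adjusted p = 0.0135) and Rpl34 (24.5 and 19.4 against 42.7 and 55.1 FPKM; adjusted p = 0.0223) upwards, and after the GC and length correction 1 rose and 10 fell. Without 1 library, 6 rose and 2 fell without Sp1_deltaDBD replicate 1, 0 and 0 without Sp3KO replicate 1, and 0 and 1 without either of the others. Rps27 and its copy Rps27rt, chosen after their values were seen, were at 5.896 and 946 against 5.34 and 6.16 FPKM and at 1125 and 14.1 against 1150.0 and 1421 FPKM, so that Sp1_deltaDBD replicate 2 had the reverse of the assignment in the other samples. Lars2, chosen likewise, was at 2259 and 10322 against 237 and 353 FPKM and was not called (adjusted p = 0.372).

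The remaining lists are to be read beside the 6.67% and 6.69% of all genes called higher and lower. Of them, 0 of 12 neural and 0 of 9 visceral endoderm and hepatic genes were called. Of 22 pluripotency genes 1 fell (4.55%), Dppa2, and of 21 epithelial genes 1 fell (4.76%), Lama1, both below the share of all genes. The first gene of the epithelial list, Cdh1, was below 1 FPKM in all 4 samples. The summed level of the epithelial list was 305 and 43.4 FPKM in Sp1_deltaDBD and 107 and 59.6 FPKM in Sp3KO, so that Sp1_deltaDBD replicate 1 stood apart. Of 30 mesoderm and cardiac factors, Isl1 rose (0.0992 and 0.206 against 0.747 and 0.298 FPKM; adjusted p = 0.0454) and Meox1 fell (0.39 and 0.724 against 0.0542 and 0.009602 FPKM; adjusted p = 0.00354), both at low levels, and the number that rose was 0 without Sp3KO replicate 1 and without either Sp1_deltaDBD sample.

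Of the 3 Y-linked genes above 3 FPKM, chosen after their values were seen, Eif2s3y was at 20.4 and 20.9 FPKM in Sp1_deltaDBD and 7.39 and 6.53 FPKM in Sp3KO (-1.56 ± 0.12, adjusted p = 5.82e-06), Uty at 7.84 and 11.4 FPKM in Sp1_deltaDBD and 1.73 and 1.27 FPKM in Sp3KO (-2.59 ± 0.26, adjusted p = 6.22e-05) and Ddx3y at 6.33 and 4.78 FPKM in Sp1_deltaDBD and 2.16 and 2.25 FPKM in Sp3KO (-1.28 ± 0.20, adjusted p = 0.00139). All 3 were lower in Sp3KO but present in both lines. On the X chromosome, 12 genes (3.54%) were called higher and 55 (16.2%) lower among 339 above 3 FPKM, beside 8.20% and 7.94% of all 9873 genes above that level, with a median difference of -0.20, whereas the medians of the autosomes lay between -0.12 and 0.097. Genotype and line cannot be told apart for these differences, and their cause was not tested.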
